A study of Boehmeria nivea with 18 samples.

Results

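The miR167 family of ramie (Boehmeria nivea) was followed along the stem by small RNA sequencing of stem bark. The members were taken by name, as every mature miRNA whose identifier begins with miR167 and a non-digit, and 6 of the 379 miRNAs counted in the libraries met this rule. The bark compared was taken from the middle stem (MPS), where fiber cells were thickening their secondary walls, and from the top stem (TPS), where they had not yet begun to. All samples came from farm-grown plants of the cultivar Zhongzhu No. 1, for which no treatment is named, and each section had 3 replicates. The labels give an age of 40 days, whereas the study's methods give a younger age. A sample was bark mixed from several plants and held all cell types of the bark, so that fewer cells of a type and less RNA per cell cannot be told apart.

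In plants, miR167 guides the cleavage of transcripts for the auxin response factors ARF6 and ARF8, which are transcription factors that switch on auxin-responsive genes. In Arabidopsis this module acts in flower maturation and in rooting. Mature miR167 is cut from a hairpin precursor, and pairing between bases 2 to 8 of the miRNA, called the seed here, and the transcript contributes to target recognition. Isoforms that share their 5′ end but end at different bases may come from different precursor genes or from different cuts of one precursor.

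All 6 isoforms had a sequence in the study's supplementary table of miRNAs, and these sequences are shown because the isoforms differed at the 3′ end alone. Each begins with the same 20 bases, and thus all share one seed. The first block of capitals marks the seed at bases 2 to 8, and capitals at the end mark the bases after base 20.
miR167d_1: tGAAGCTGccagcatgatct
miR167a-5p: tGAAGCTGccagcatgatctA
miR167d-5p: tGAAGCTGccagcatgatctG
miR167a: tGAAGCTGccagcatgatctAA
miR167c-5p_1: tGAAGCTGccagcatgatctGC
miR167d: tGAAGCTGccagcatgatctGG
The isoform of 20 nt, miR167d_1, is therefore the start of every other isoform. The isoforms of 21 nt add an A (miR167a-5p) or a G (miR167d-5p), and those of 22 nt add AA, GC or GG. The names follow plant miRNAs in miRBase, of which the files list 70 for miR167a-5p (ath-miR167a-5p and ath-miR167b of Arabidopsis among them), 39 for miR167d-5p, 7 for miR167d (ath-miR167d among them), 4 for miR167d_1 and 2 each for miR167a and miR167c-5p_1.

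The same table gives a genomic window of 300 bases as the precursor of each isoform, without its position in the genome. The windows of miR167a and miR167a-5p overlapped by 299 bases, and those of miR167c-5p_1 and miR167d-5p by 51 bases. Windows that overlapped by at least 40 bases were taken as 1 locus, which grouped the 6 windows into 4 inferred loci. The windows of miR167c-5p_1 and miR167d-5p also held 38 and 131 unread bases. The first 26 bases from the start of the mature miRNA are shown for each locus, since they give the bases that each precursor can add after base 20, with the bases after base 20 in capitals.
miR167a and miR167a-5p: tgaagctgccagcatgatctAAACTT
miR167c-5p_1 and miR167d-5p: tgaagctgccagcatgatctGCGCTT
miR167d: tgaagctgccagcatgatctGGTAAT
miR167d_1: tgaagctgccagcatgatctAGGTTC
The sequence of miR167d_1 was held by all 4 loci, those of miR167a-5p and miR167d-5p by 2 loci each, and those of the 3 isoforms of 22 nt by 1 locus each. A tag of 20 or 21 nt thus did not identify its locus. How the authors' counting assigned tags that match several names is not stated in the sources used here, and the part of this assignment in the levels, shares and ratios of single isoforms, those of miR167d_1 included, was not tested.

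The libraries held a median of 30853684 tags, the largest 1.16 times the smallest, of which 3363754 to 5851164 were counted for miRNAs and 8498 to 43637 for miR167. The level of an isoform is given in TPM, its count scaled to the tag total of the library, which is not divided by length. The quasi-likelihood test of edgeR was run on the counts of 329 miRNAs that a filter on low counts had kept, all 6 isoforms among them. A call needed at least a 2-fold change and a p under 0.05 after Benjamini-Hochberg adjustment. Replicate 1 of both sections stood apart from the other libraries. Over the tested miRNAs, the log2 levels of MPS replicate 1 correlated at Pearson's r = 0.886 with TPS replicate 1, but at less with either of the other MPS replicates (0.797 with MPS replicate 3).

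The total of the family did not differ between the sections beyond the spread between replicates. Summed over the isoforms, miR167 was at 1171, 416 and 442 TPM in MPS replicates 1, 2 and 3, against 364, 275 and 1583 TPM in TPS replicates 1, 2 and 3. The highest library of each section exceeded the other libraries of its section, and the sections overlapped. The means were 677 ± 429 TPM in MPS and 740 ± 731 TPM in TPS (SD, n = 3 libraries per section), a log2 ratio of -0.13 (two-sided exact permutation test, p = 1, where 0.1 is the smallest that 3 against 3 allow). The sign of this ratio rested on single libraries. It was 1.08 without TPS replicate 3, 0.12 without MPS replicate 2 and 0.10 without MPS replicate 3, and -1.11 with replicates 2 and 3 only.

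Within this total, the fitted changes of the isoforms had both signs, and miR167d_1 was the isoform whose levels parted the sections. It was at 23.3, 4.94 and 7.30 TPM in MPS replicates 1, 2 and 3, against 276, 131 and 634 TPM in TPS replicates 1, 2 and 3. Every MPS library was below every TPS library. The means were 11.8 ± 9.98 TPM in MPS and 347 ± 259 TPM in TPS (SD, n = 3; exact permutation test, p = 0.1). The sections did not overlap for 30.4% of the tested miRNAs, and for 1 of the 6 isoforms. The fitted log2 fold change of miR167d_1, MPS over TPS, was -4.84 (standard error 0.91), which had the fourth lowest p of all miRNAs but did not pass edgeR's test (adjusted p = 0.106). edgeR called 0.0% of the miRNAs, whereas 17.9% had an unadjusted p under 0.05, and of the isoforms miR167d_1 alone did.

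Other fits called miR167d_1. Its adjusted p was 1.85e-06 from DESeq2, which called 14.6% of the miRNAs (8.54% as higher and 6.1% as lower in MPS). It was 0.0498 from limma on log2 TPM, which called 2.74% of the miRNAs (1.52% as higher and 1.22% as lower). A term that sets replicate 1 apart from the other replicates gave an adjusted p of 0.0452 in edgeR, with 9.42% of the miRNAs called (4.26% as higher and 5.17% as lower). No label sets replicate 1 apart, and this term rests on the levels of these same libraries alone. With the replicate number as a block instead, edgeR did not call miR167d_1 (adjusted p = 0.0799). Without 1 library, edgeR's adjusted p was 0.115 to 0.440.

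**Figure D1:**
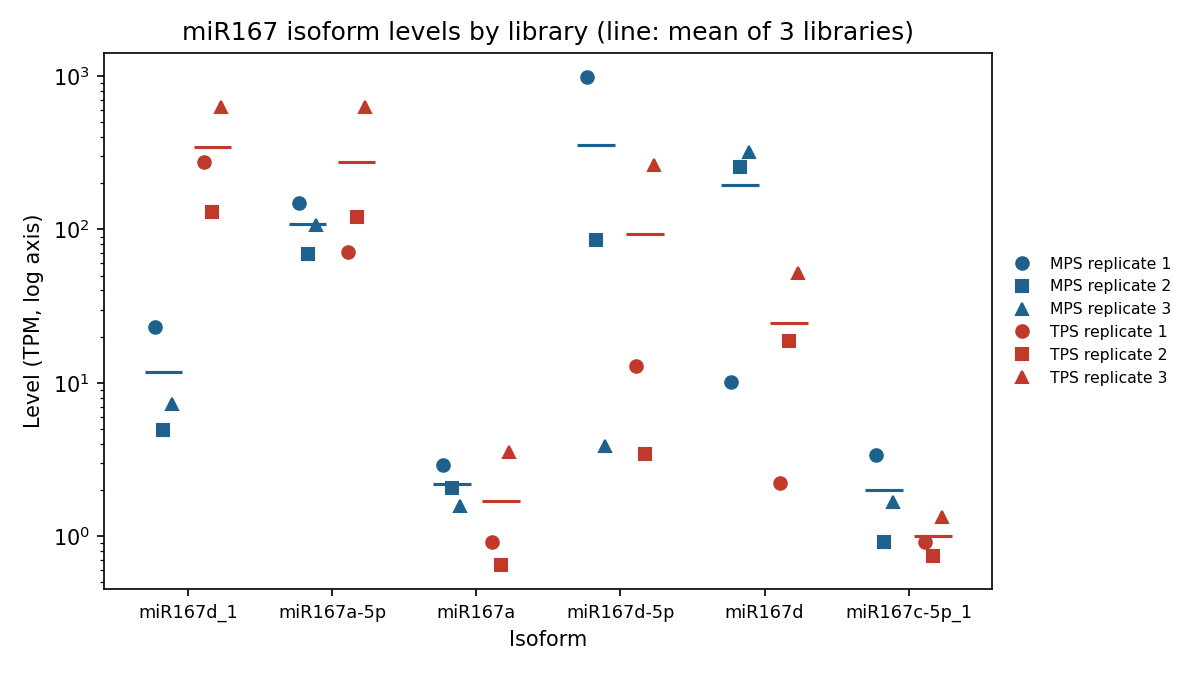
Level of each miR167 isoform in TPM (log axis) in the 3 MPS and 3 TPS libraries, with symbols for the replicate number and a line at the mean of 3 libraries. For miR167d_1 the MPS libraries sit between 4.94 and 23.3 TPM, all below the TPS libraries at 131 to 634 TPM, while the sections overlap for the other isoforms.

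miR167d, the isoform ending in GG, went the other way in the means. It was at 10.1, 254 and 322 TPM in MPS replicates 1, 2 and 3, against 2.21, 18.7 and 52.3 TPM in TPS replicates 1, 2 and 3. MPS replicate 1 lay below 2 TPS libraries, so that the sections overlapped, but within each replicate number the MPS library was the higher one. The log2 fold change was 3.03 (standard error 1.49, adjusted p = 0.314 from edgeR, means of 195 ± 164 TPM in MPS and 24.4 ± 25.5 TPM in TPS, SD, n = 3). With replicate 1 as a term, edgeR called miR167d as higher in MPS (log2 fold change 2.80, adjusted p = 0.0452), as it did 4.26% of the miRNAs. No other alternative called it. Its adjusted p was 0.0895 from DESeq2, 0.378 from limma on log2 TPM and 0.0799 from edgeR with a replicate block. Without 1 library, edgeR's adjusted p was 0.199 to 0.584.

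miR167d-5p, the isoform ending in G, varied most between libraries of 1 section. It was at 983, 85.5 and 3.86 TPM in MPS replicates 1, 2 and 3, against 12.9, 3.43 and 262 TPM in TPS replicates 1, 2 and 3. The highest MPS library held 255 times the level of the lowest one. Its fitted change, 1.96 on the log2 scale with a standard error of 2.08 (edgeR, adjusted p = 0.637), turned to -0.74 without MPS replicate 1 and to -1.26 with replicates 2 and 3 only.

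miR167a-5p, the isoform shared with Arabidopsis miR167a and miR167b, had the narrowest range of the 4 abundant isoforms over all 6 libraries, although within TPS that of miR167d_1 was narrower. It was at 149, 68.8 and 106 TPM in MPS replicates 1, 2 and 3, against 71.0, 121 and 629 TPM in TPS replicates 1, 2 and 3. The sections overlapped, and TPS replicate 3 was far above the other libraries. The log2 fold change was -1.32 (standard error 0.86, adjusted p = 0.432 from edgeR), and 0.14 without TPS replicate 3. The remaining isoforms of 22 nt were rare. miR167a had 49 to 93 counts in MPS and 20 to 97 in TPS, and miR167c-5p_1 had 28 to 108 in MPS and 23 to 37 in TPS, with log2 fold changes of 0.41 (standard error 0.73) and 1.01 (standard error 0.59). Neither passed edgeR's test, and without 1 library they were 0.10 (without TPS replicate 2) to 1.51 (without TPS replicate 3) for miR167a and 0.52 (without MPS replicate 1) to 1.36 (without MPS replicate 2) for miR167c-5p_1.

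Ordered by mean level in MPS, miR167d-5p was followed by miR167d, miR167a-5p, miR167d_1, miR167a and miR167c-5p_1. In TPS the order was miR167d_1, miR167a-5p, miR167d-5p, miR167d, miR167a and miR167c-5p_1. In MPS the levels of neighbors in this order overlapped between libraries, except that miR167d_1 was below miR167a-5p and above miR167a in every library. In TPS the levels of all neighbors overlapped between libraries. Within each TPS library, however, miR167d_1 was above miR167a-5p, and miR167a-5p was above miR167d-5p.

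The make-up of the family differed between the sections as well. The share of an isoform is its count over that of the whole family in the same library, so that neither depth nor normalization enters. miR167d_1 made up 1.99, 1.19 and 1.65% of the miR167 tags in MPS replicates 1, 2 and 3, against 75.8, 47.6 and 40.1% in TPS replicates 1, 2 and 3. It was the leading isoform of all 3 TPS libraries and the lowest of the 4 abundant isoforms in 1 of the MPS libraries, MPS replicate 2. The 95% Wilson interval of every such share reached at most 1.06 percentage points to either side, which covers counting error only.

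**Figure D2:**
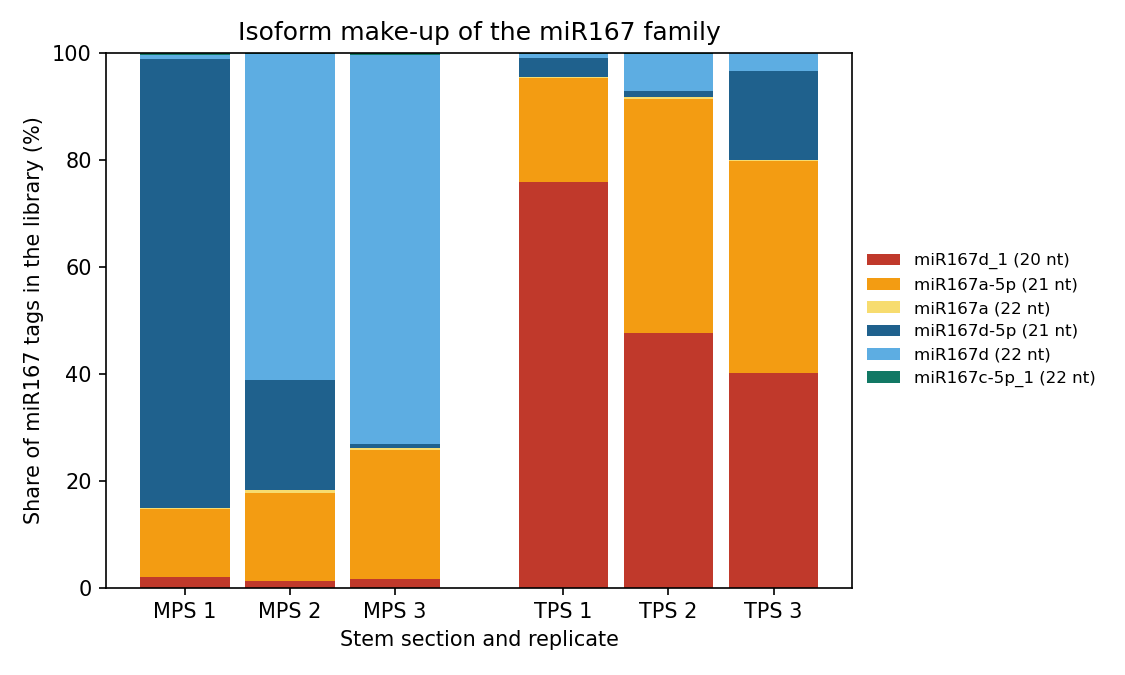
Share of each isoform among the miR167 tags of a library, in percent, stacked to the whole family for 3 MPS and 3 TPS replicates. miR167d_1 takes 40.1 to 75.8% in TPS and 1.19 to 1.99% in MPS, where miR167d-5p leads replicate 1 and miR167d leads replicates 2 and 3.

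The leading isoform was not the same in all MPS libraries. miR167d-5p held 83.9% of the tags in MPS replicate 1, while miR167d held 61.0% in MPS replicate 2 and 72.7% in MPS replicate 3. Their shares in the other MPS libraries were 20.5 and 0.872% for miR167d-5p and 0.863% for miR167d. miR167a-5p held 12.7 to 24.0% in MPS and 19.5 to 43.9% in TPS, and was second to miR167d_1 in every TPS library.

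Grouped by base 21, a grouping chosen after the values were seen and therefore given without a test, the MPS libraries resembled each other. Isoforms with G at this base, which are miR167d-5p, miR167d and miR167c-5p_1, together held 85.1, 81.8 and 74.0% of the tags in MPS replicates 1, 2 and 3, against 4.41, 8.32 and 19.96% in TPS replicates 1, 2 and 3. Isoforms with A at this base, miR167a-5p and miR167a, held 13.0 to 24.4% in MPS and 19.8 to 44.1% in TPS. The summed share of the G isoforms thus did not overlap between the sections, although that of each abundant member did. Shares sum to a fixed whole, so this is not separate from the low share of miR167d_1 in MPS. In TPM the G isoforms summed to 327 to 996 in MPS and to 16.04 to 316 in TPS, ranges that nearly met. The sections did not overlap in TPM for 30.4% of the single miRNAs tested. Grouped by length, the isoforms of 22 nt held 1.40, 61.7 and 73.4% in MPS replicates 1, 2 and 3, against 1.11, 7.31 and 3.61% in TPS replicates 1, 2 and 3, and those of 21 nt overlapped widely.

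The shares were tested with limma on the log2 scale, over 126 isoforms of the 20 families with at least 2 tested members. In MPS the share of miR167d_1 fell by 5.06 on the log2 scale (standard error 0.38, adjusted p = 0.00393), and had the lowest p of the 126 isoforms. Shares changed for 3.17% of the isoforms, 4 in all, and for 1 of the 6 miR167 isoforms. No label pairs the samples of the sections, and pairing by replicate number was inferred from the levels alone. With the replicate number as a block, 2 of the 126 changed, and miR167d_1 was called among them (adjusted p = 0.0238 from limma). It was called in each of the 11 alternatives tried, with adjusted p of 0.00322 to 0.0419 from limma, including that with replicates 2 and 3 only (-4.96, adjusted p = 0.0419). The other isoforms did not pass. Their changes were 2.71 for miR167d (standard error 2.05), 1.45 for miR167d-5p (standard error 1.96), 0.68 for miR167c-5p_1 (standard error 0.55), 0.57 for miR167a (standard error 0.33) and -0.92 for miR167a-5p (standard error 0.46). Single libraries moved these values. Without MPS replicate 3 and without MPS replicate 1 they were 1.60 and 4.797 for miR167d, and 3.31 and 0.016 for miR167d-5p. Without TPS replicate 3 the change of miR167c-5p_1 was 0.14, and without MPS replicate 2 that of miR167a was 0.32. Shares within a family sum to a fixed whole, and an isoform may therefore change in share because another one does.

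**Figure D3:**
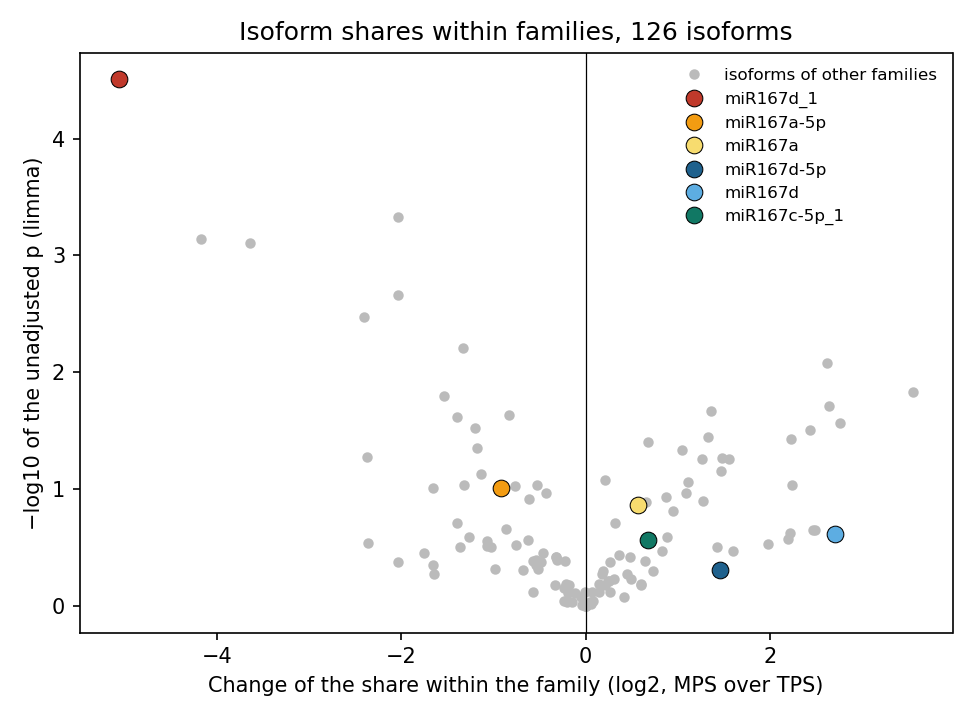
Change of the share within the family (log2, MPS over TPS; x axis) against −log10 of the unadjusted p from limma (y axis) for 126 isoforms of 20 families, with the 6 miR167 isoforms in color. miR167d_1 lies farthest to the left, at -5.06, and highest, while the other 5 lie among the isoforms of other families.

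Isoforms were also compared with each other by their ratio within the same library. All 15 pairs were compared, on log2 ratios of counts with 0.5 added. The ratio of miR167d to miR167d_1 was -1.20, 5.68 and 5.46 in MPS replicates 1, 2 and 3, against -6.96, -2.80 and -3.60 in TPS replicates 1, 2 and 3. It was higher in every MPS library than in any TPS library, by 7.76 in the means (3.31 ± 3.91 in MPS and -4.45 ± 2.20 in TPS, SD, n = 3). The difference was 6.51 for miR167d-5p, 5.74 for miR167c-5p_1, 5.63 for miR167a and 4.14 for miR167a-5p, each to miR167d_1. None of these 5 pairs overlapped between the sections (two-sided exact permutation test, p = 0.1 for each, the smallest possible, and adjusted p = 0.214 over the 15 pairs). All 5 share miR167d_1, whose own levels parted the sections, so they largely restate that difference and are not separate results. Pairs of other families were not compared in this way. Without 1 library, the ratio of miR167d to miR167d_1 differed by 6.51 to 10.02. Of the 10 other pairs, those of miR167a-5p with miR167a and with miR167c-5p_1 did not overlap either, with differences of 1.49 for miR167a to miR167a-5p and -1.60 for miR167a-5p to miR167c-5p_1. For each of them the exact permutation test gave p = 0.1 (adjusted p = 0.214 over the 15 pairs). Both pairs share miR167a-5p and set it against a rare isoform, so they are not independent of each other. The ratio of miR167d to miR167d-5p ranged from -6.60 to 6.38 within MPS alone, and its difference between the sections was 1.26 (exact permutation test, p = 1).

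**Figure D4:**
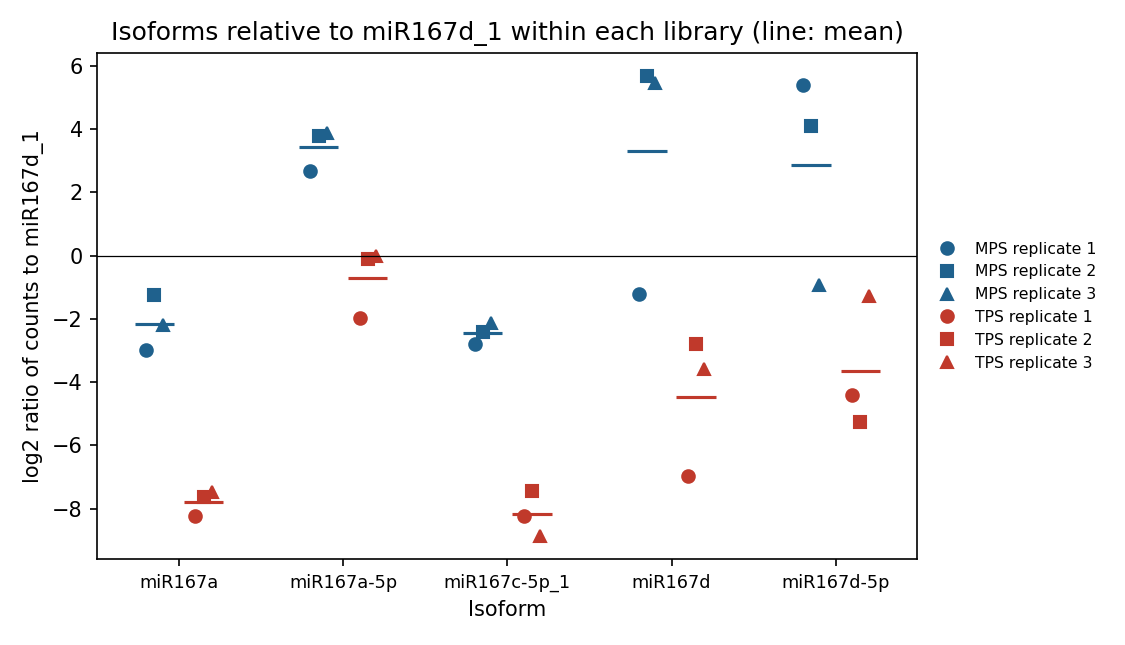
log2 ratio of the count of each isoform to that of miR167d_1 in the same library (y axis), for 3 MPS and 3 TPS replicates, with a line at the mean. In each of the 5 pairs all MPS libraries lie above all TPS libraries, by 4.14 to 7.76 in the means. The 5 ratios share miR167d_1 and are not independent.

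The other miRNA families of auxin signaling were read in the same fit. miR160 targets further auxin response factors (ARF10, ARF16 and ARF17 in Arabidopsis), miR390 starts the small RNAs that act on ARF2, ARF3 and ARF4, and miR393 targets the TIR1 and AFB auxin receptors. Of their 19 miRNAs, 16 were tested and edgeR called 0, as it did for all miRNAs. An unadjusted p under 0.05 was found for 4 of the 16, against 17.9% of all tested miRNAs, and DESeq2 called 3, against 14.6% of all miRNAs. Their median log2 fold change was 0.07, that of miR167 was 0.71 and that of all tested miRNAs -0.19. miR390a-5p was at 61.0, 57.5 and 55.5 TPM in MPS replicates 1, 2 and 3, against 125, 165 and 162 TPM in TPS replicates 1, 2 and 3, which gave -1.37 on the log2 scale with a standard error of 0.34 (adjusted p = 0.129 from edgeR and 0.00269 from DESeq2). miR393-5p was at 4.66 ± 0.811 TPM in MPS and 0.480 ± 0.495 TPM in TPS (SD, n = 3), a log2 fold change of 3.31 (adjusted p = 0.129 from edgeR and 0.000467 from DESeq2). In TPS replicates 1, 2 and 3 miR393-5p was at 0.16, 0.23 and 1.05 TPM, so that few tags were counted there. The most abundant tested miRNA of its family was miR393b-5p, with means of 374 TPM in MPS and 139 TPM in TPS. Its log2 fold change was 1.43 (standard error 0.40, adjusted p = 0.142 from edgeR). miR160a-5p was at 1341 TPM in MPS replicate 3 and at 3.66 to 14.96 TPM in the other 5 libraries. Its log2 fold change of 5.81 (adjusted p = 0.240 from edgeR) was 0.35 without that library. On the other side stood the most abundant tested miRNA of the miR160 family, named miR160. It had means of 474 TPM in MPS and 871 TPM in TPS. Its log2 fold change was -0.78 (standard error 1.41, adjusted p = 0.767 from edgeR). Also on this side, miR160h and miR393a-5p had log2 fold changes of -0.45 and -0.53 at mean levels under 2 TPM.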

How the data were processed

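Small RNAs of 3 MPS and 3 TPS bark samples were sequenced on the BGISEQ-500 platform, and the authors aligned clean tags with miRBase (AASRA) and Rfam (CMsearch) and predicted further miRNAs from the rest (PIPmiR). The deposited count values are tags per small RNA in each library. The deposited TPM values equal the count over the library total given in the header, on the usual TPM scale. Tool versions and mismatch settings: not given in the sources used here. Reads were not realigned. The transcript and circRNA files were not used.

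Counts were compared with edgeR 4.0.16 (TMM, filterByExpr, library totals as library sizes) in R 4.3.3, with the standard error of a log2 fold change taken as its size divided by the root of F. DESeq2 1.42.0 and limma 3.58.1 on log2(TPM + 0.5) were alternatives. The study used DEGseq, which was not at hand. Shares were fitted with limma (trend) on log2 of count over family sum, with 0.5 added per isoform. Python 3.11.15 with scipy 1.17.1 gave the exact permutation tests of single values (two-sided). The edgeR fit and the limma fit of shares were tested on simulated data, and limma on log2 TPM was not. The simulated counts had less spread between replicates than edgeR estimated for these libraries. Deviations from the section means correlated at 0.643, 0.365 and 0.352 between same-numbered samples, and a block by number was therefore tried. No label states such pairs, and MPS replicate 2 correlated at 0.370 with TPS replicate 3. The members, the auxin-linked list and the alternatives were chosen with earlier results of these data known. All miR167 isoforms are named, and of the auxin-linked list the miRNA with the lowest p per family and direction. miR160 and miR393b-5p were added for their high levels. For miR167d_1 and miR167d, the 3 miRNAs outside the family with the highest correlation of log2(TPM + 0.5) are named as well. Nothing says more of the replicates than that they are biological ones. The p-values set a difference between the sections against the spread between these samples.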

Additional observations from a re-analysis of the deposited data

How the results depend on the processing

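No miR167 isoform was called by edgeR, and this held with RLE normalization, with library totals alone, with miRNA sums as library size, without a filter and with a replicate block (adjusted p = 0.0799 for miR167d_1). DESeq2 and limma on log2 TPM called 1 isoform each, and edgeR with replicate 1 as a term called 2. Over all miRNAs, 48 were called by DESeq2, 9 by limma and 31 with replicate 1 as a term, and 0 to 5 without 1 library (5 without TPS replicate 1). Of the auxin-linked miRNAs, DESeq2 called 3, limma 1 and edgeR with replicate 1 as a term 2. The causes were not tested. The log2 ratio of the family sum was 0.28 as a ratio of medians and 0.15 as the mean within replicate numbers (the replicate block). It was -0.79 to 1.08 without 1 library. Without 1 library, edgeR's log2 fold change was -1.69 to 0.14 for miR167a-5p, -0.74 to 5.53 for miR167d-5p and -0.67 to 0.047 for miR393a-5p, and the ratio of miR167d to miR167d-5p differed by -1.71 to 4.78. With replicates 2 and 3 only, an alternative chosen after replicate 1 was seen to stand apart, the log2 fold change was -1.26 for miR167d-5p and 0.062 for miR160h, and the change in share of miR167d-5p was -0.10. The number of isoforms of all families whose share changed was 1 to 8 without 1 library (8 without TPS replicate 1, and 1 without MPS replicate 2, TPS replicate 2 or TPS replicate 3). The replicate block changed no other call on miR167. The isoforms miR167a and miR167c-5p_1, at 20 to 108 counts in every library, carry the largest counting error. Single libraries of other isoforms were as low, with 68 counts of miR167d in TPS replicate 1 and 106 of miR167d-5p in TPS replicate 2.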

Other observations

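Among the 198 other miRNAs with a mean of at least 10 TPM, the level of miR166h-3p_1 followed that of miR167d_1 most closely. It was at 33.7, 19.4 and 16.8 TPM in MPS replicates 1, 2 and 3, against 102, 78.9 and 150 TPM in TPS replicates 1, 2 and 3, with Pearson's r = 0.993 over log2(TPM + 0.5) in the 6 libraries. It was followed by the predicted miRNAs novel_mir36 (r = 0.959) and novel_mir91 (r = 0.955). All of them were lower in every MPS library than in any TPS library. This follows largely from the choice, as they were picked for their likeness to miR167d_1. The sections did not overlap for 30.4% of all tested miRNAs.

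The miRNAs most like miR167d were miR396b (r = 0.979), novel_mir149 (r = 0.931) and miR171b-3p_1 (r = 0.898). miR396b, of a family that targets growth-regulating factors, was at 29.1, 997 and 658 TPM in MPS replicates 1, 2 and 3, against 16.7, 53.1 and 118 TPM in TPS replicates 1, 2 and 3. Like miR167d, it was low in replicate 1 of both sections. These correlations describe 6 points from shared libraries and were picked as the highest of 198.

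Among the isoforms themselves, log2 levels over the same 6 libraries correlated at r = -0.107 for miR167d and miR167d-5p, at 0.856 for miR167d-5p and the rare miR167a, and at -0.633 for miR167d and miR167d_1.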
